A study of Mus musculus with 2 samples.

Results

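The MAP kinase cascade genes are 46 of the 55414 genes in the deposited read count tables. They were taken by gene symbol: every gene named Mapk, Map2k, Map3k, Map4k or Mapkapk with a number and nothing after it. By tier these are 13 MAP kinases, 7 MAP2 kinases, 18 MAP3 kinases, 5 MAP4 kinases and 3 MAPKAP kinases. RNA was sequenced from R1E cells, a wild-type (WT) line of mouse embryonic stem cells, which were grown in serum medium with leukemia inhibitory factor. The untreated library (treatment none) was labelled 0 h, and the Adriamycin library came from R1E cells after 8 h with 0.5 µM Adriamycin. Adriamycin, or doxorubicin, traps topoisomerase II on DNA and leaves strand breaks. The comparison asks how transcript levels differ with and without the drug.

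MAP kinase cascades are relays of protein kinases that carry signals from the membrane, or from stress inside the cell, to transcription factors. MAP4 kinases can activate MAP3 kinases, a MAP3 kinase phosphorylates a MAP2 kinase, the MAP2 kinase phosphorylates a MAP kinase on its activation loop, and some MAP kinases then activate the MAPKAP kinases. The ERK branch answers to growth factors and, in mouse embryonic stem cells, drives exit from naive pluripotency, while the JNK and p38 branches answer mainly to stress, DNA damage included. Activity of these kinases is set largely by phosphorylation, which RNA levels do not measure.

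Each condition had 1 library, with 41820999 reads for untreated and 38561292 for Adriamycin. With no replicate there is no test and no p-value, and every value below describes these libraries. Treatment, time in culture and differences between the cultures or preparations cannot be told apart. In bulk RNA, fewer cells of a type and less RNA per cell cannot be told apart either. Counts were scaled to CPM, the usual depth-scaled read count, with TMM library factors. A log2 ratio sets the Adriamycin library over the untreated one, and the range in parentheses is its exact 95% counting interval, which covers counting error only. Levels of different genes are compared only as CPM per kilobase of exon. A gene is called measured where its CPM averaged 1 or more over the pair of libraries, and higher or lower at a ratio of at least 2-fold. Where a pair of values is given for a gene, the untreated library comes first. All 10 stem cell markers were measured in both libraries, summing to 6546 CPM untreated and 3774 CPM with Adriamycin. Of these 10, 5 were lower, beside 6.95% of all measured genes. Of 11 fibroblast markers, listed because fibroblasts are the usual feeder cells, Col3a1, Dcn, Lum and Postn had 0 reads in both libraries. The summed level of the fibroblast list was 70.0 CPM untreated and 177 CPM with Adriamycin. Of its 7 measured genes 3 were higher, beside 17.0% of all measured genes. These were Fbln2 (247 and 2177 reads), Col1a1 (214 and 1295) and Col6a1 (7 and 107). Col6a1 was measured only through its level in the Adriamycin library. Of 5 blood markers 2 were measured and 1 of these was higher (Cd3e, 47 and 97 reads), and Ptprc had 0 reads in both libraries. The blood list summed to 38.1 and 43.4 CPM, of which Cd68 made up 36.4 and 39.5 CPM. The part of these marker lists in the values below was not tested.

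Of the 46 members, 44 were measured. Among them 9 (20.5%) were higher in the Adriamycin library, where 17.0% of all 14871 measured genes were. Lower members were 2 of 44 (4.55%), against 6.95% of all measured genes. The count over the whole set was thus close to the background in both directions. The median log2 ratio of the measured members was 0.20, and that of all measured genes was -0.03. At 1.5-fold 15 members were higher and 7 lower (all genes: 25.7% and 18.9%), and at 3-fold 6 were higher and 1 lower (9.86% and 1.73%). By tier the values ranged widely. In the MAP kinase tier 0 of 12 were higher and 2 lower, and the median was -0.66. In the MAP2 kinase tier 0 of 7 were called (median 0.09). In the MAP3 kinase tier 8 of 17 were higher and 0 lower (47.1% higher, median 0.94). The MAP4 kinase tier had 0 called of 5 (median 0.36), and the MAPKAP kinase tier had 1 higher of 3 (median 0.57). The median of the MAP2 kinases was below 0 with upper-quartile factors, while those of the other tiers had the same sign under all 4 scalings.

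**Figure D1:**
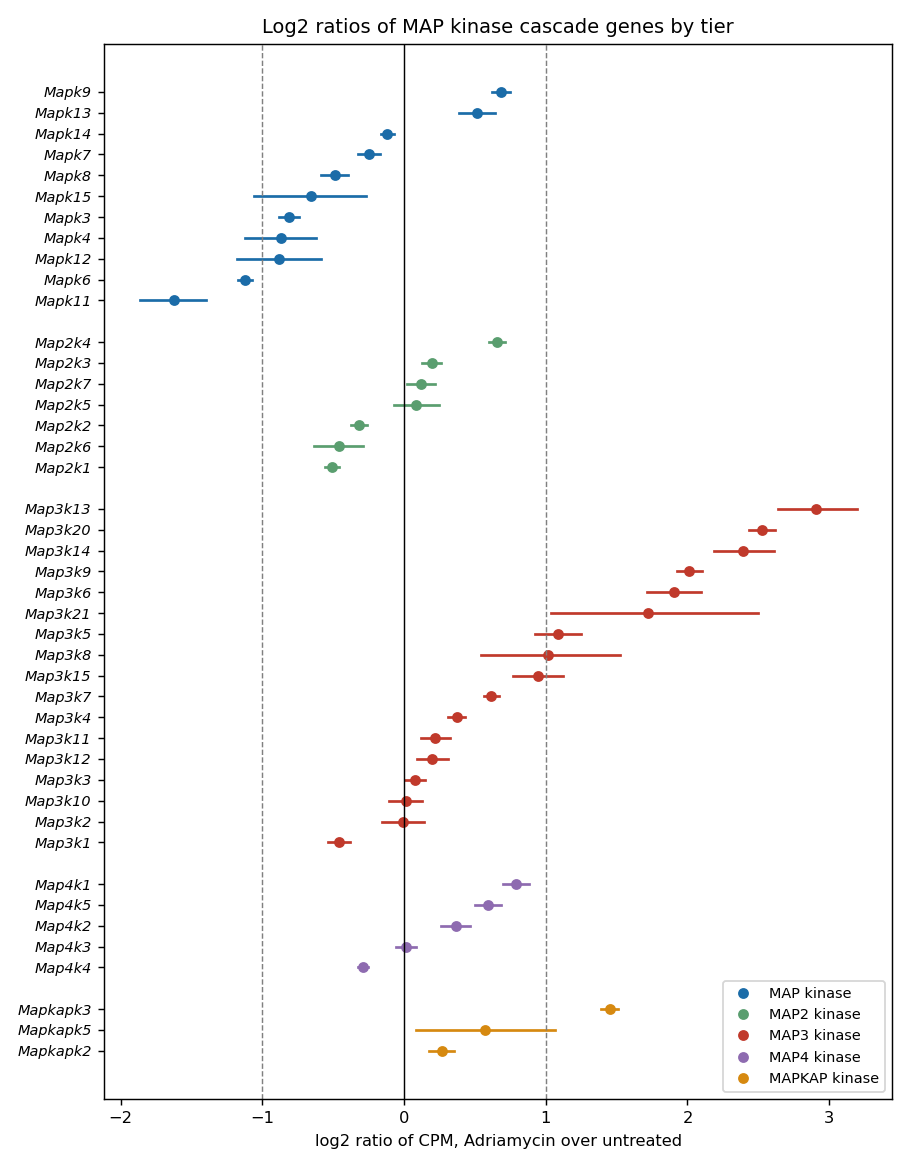
Log2 ratio of CPM, Adriamycin over untreated library, for measured members (points, coloured by tier), with exact 95% counting intervals (bars) and dashed lines at 2-fold. The MAP kinases lie mostly left of 0, down to -1.62, and the MAP3 kinases mostly right of it, up to 2.91. Each condition has 1 library.

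Low genes were called higher more often in these libraries, so the MAP3 kinases were also read by level. Their median in the untreated library was 27.0 CPM, beside 21.8 CPM over all measured genes. By mean level, 2 of 2 MAP3 kinases at 1 to 5 CPM were higher, beside 31.8% of all genes at that level. At 5 to 20 CPM these were 4 of 6 beside 19.9%, at 20 to 100 CPM 2 of 7 beside 10.3%, and at 100 CPM or more 0 of 2 beside 7.02%. Map3k21 had 0.55 CPM in the untreated library, so it was measured only through its level in the Adriamycin library. A gene of this kind can only have a high ratio. Of the lower members, Mapk11 was at 5 to 20 CPM, where 6.12% of all genes were lower, and Mapk6 at 100 CPM or more, where 8.89% were. At 1 to 5 CPM and at 20 to 100 CPM 0 members were lower, beside 9.51% and 4.94% of all genes. Mapk10 (0 and 57 reads) and Map3k19 (0 and 4 reads) were the 2 members under 1 CPM.

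Of the MAP kinases themselves, the last tier of the relay, 2 of 12 were lower and 10 were not called. Their log2 ratio was below 0 for 10 of 12, as it was for 7678 of all 14871 measured genes, and Mapk14 among the 10 changed sign with the scaling. Mapk3, which encodes ERK1 (chromosome 7, 126358773 to 126364991, GRCm39), had 4135 and 2402 reads (46.1 and 26.2 CPM per kilobase), with a log2 ratio of -0.81 (-0.88 to -0.74). It was thus less abundant with Adriamycin, without reaching 2-fold.

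The 2 lower members of the whole set were Mapk6 and Mapk11. Mapk6 encodes ERK3, an atypical and unstable MAP kinase that is not activated by the usual MAP2 kinases (chromosome 9, 75276344 to 75317287, GRCm39). It had 10818 reads untreated and 5059 with Adriamycin, 2.18-fold lower (log2 ratio -1.12, -1.17 to -1.08). With total counts alone its log2 ratio was -0.98, short of 2-fold. Mapk11 encodes p38 beta (chromosome 15, 89026689 to 89033831) and had 618 and 204 reads, 3.08-fold lower (-1.62, -1.86 to -1.40). Its neighbour on chromosome 15, Mapk12, encodes p38 gamma and had 271 and 150 reads (-0.88). With upper-quartile factors Mapk12 was at -1.001, just past 2-fold. The other atypical genes were low, Mapk4 (ERK4) at 375 and 209 reads and Mapk15 (ERK8) at 141 and 91, with log2 ratios of -0.87 and -0.66.

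Within the p38 subfamily, the members stood apart from each other. Mapk14, which encodes p38 alpha, the widely expressed form, held 76.3% of the summed p38 level per kilobase untreated and 77.0% with Adriamycin. It had 7804 and 7330 reads (log2 ratio -0.12, -0.16 to -0.07), and the sign turned with total counts alone (0.03). Mapk13, p38 delta, was on the other side, with 843 and 1229 reads (0.52, 0.39 to 0.64). Its share of the p38 level was 11.5% in the untreated and 17.9% in the Adriamycin library, while the share of Mapk11 was 9.16% and 3.25%.

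The JNK genes showed a similar split. Mapk9, which encodes JNK2, had 3131 reads in the untreated and 5125 in the Adriamycin library (log2 ratio 0.68, 0.62 to 0.75). Mapk8, which encodes JNK1, had 2147 and 1558 reads (-0.49, -0.59 to -0.40). JNK2 transcripts were thus more abundant with the drug and JNK1 transcripts less abundant, neither by 2-fold. The share of Mapk9 in the summed JNK level per kilobase was 71.1% in the untreated and 84.2% in the Adriamycin library. The neuronal JNK3 gene Mapk10 (chromosome 5, 103055814 to 103359200) had 0 untreated reads and 57 Adriamycin reads. Set against a floor of 3 untreated reads, its 57 reads came to 18.6-fold, with no allowance for counting error in the 57. The lower end of its counting interval was a log2 ratio of 3.87, or 2.83 with counts halved. Mapk10 made up 0.571% of the JNK level in the Adriamycin library. Mapk7, which encodes ERK5, had 2955 and 2537 reads (-0.25).

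**Figure D2:**
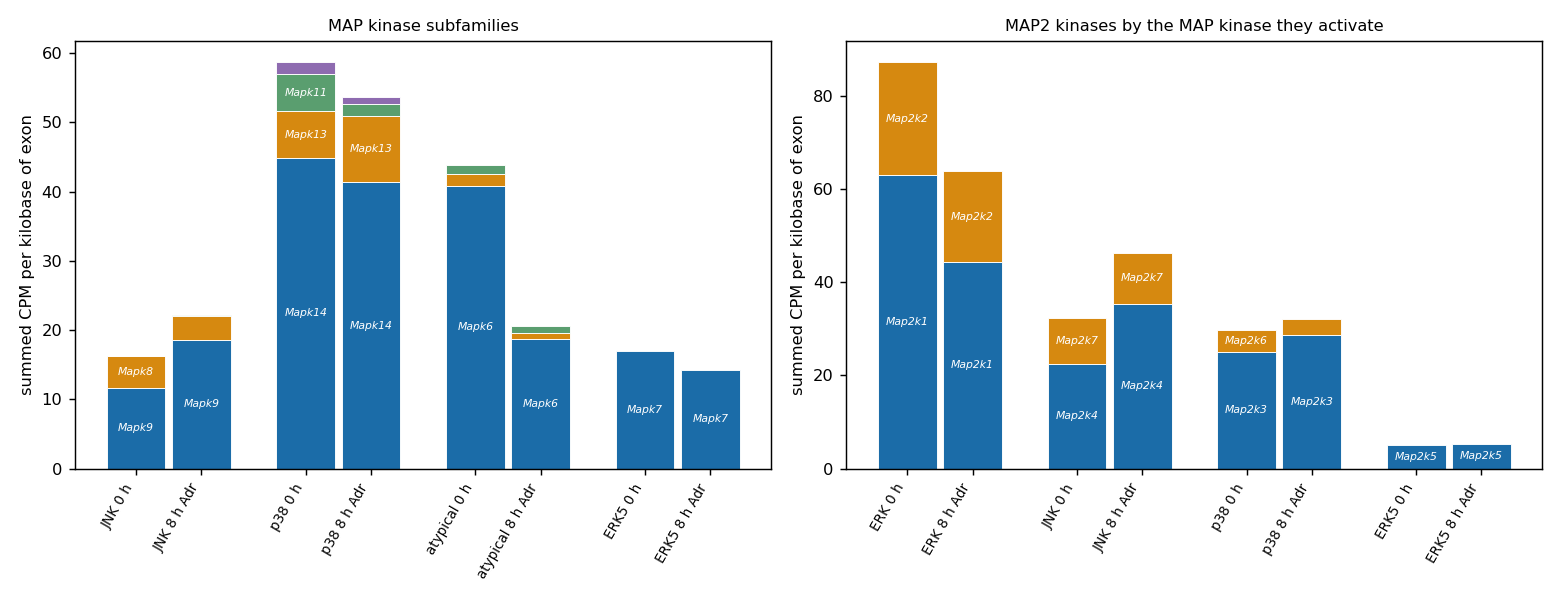
Summed CPM per kilobase of exon in the untreated (0 h) and the Adriamycin (8 h Adr) library, for the JNK, p38, atypical and ERK5 subfamilies of MAP kinases (left) and for MAP2 kinases grouped by the MAP kinase they activate (right), with stacked bars split by gene and 1 library per bar. Map2k4, which activates JNK and p38, is grouped with JNK only. The JNK bars go from 16.3 to 22.1 and those of the ERK-activating MAP2 kinases from 87.3 to 63.8.

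The MAP2 kinases, which phosphorylate the MAP kinases on threonine and tyrosine, differed by less than 2-fold throughout. Map2k1, which encodes the ERK activator MEK1 (chromosome 9, 64093052 to 64160913), was the most abundant at 63.0 CPM per kilobase in the untreated and 44.3 in the Adriamycin library. Its reads were 8491 and 6091 (log2 ratio -0.51, -0.55 to -0.46). Map2k2, which encodes MEK2, had 5491 and 4483 reads (-0.32). These MAP2 kinases of the ERK branch summed to 87.3 and 63.8 CPM per kilobase, and neither passed 2-fold. Map2k4, which encodes MKK4, an activator of JNK and p38, had 4158 and 6694 reads (0.66, 0.60 to 0.72). With Map2k7 (MKK7, 1519 and 1682 reads, 0.12), it made up the JNK activators, at 32.4 CPM per kilobase untreated and 46.2 with Adriamycin. Map2k7 shares 35.2% of its exon bases with Gm49320 on the same strand, and reads there were assigned to neither gene.

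Of the p38 activators, Map2k3 (MKK3, chromosome 11, 60822859 to 60843637) had 3301 and 3854 reads (0.20). At 25.0 CPM per kilobase Map2k3 was the next most abundant MAP2 kinase in the untreated library. It was nearly level with Map2k2 (24.4), which had more reads. Map2k6 (MKK6) had 634 and 469 reads (-0.46). The ERK5 activator Map2k5 had 640 and 693 reads (0.09). By branch, the log2 ratio of summed levels was -0.45 for the ERK activators, 0.44 for the JNK genes and 0.51 for their activators, all under 2-fold and of the same sign under all 4 scalings. Those of the p38 genes, of Map2k3 with Map2k6, and of the ERK5 activator changed sign with the scaling. Map2k4, which also activates p38, was summed with the JNK activators only. A sum of p38 activators that includes Map2k4 was not computed.

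The MAP3 kinases, the entry points of stress and receptor signals, held 8 of the 9 higher members. Map3k13 encodes LZK, a leucine zipper kinase of the JNK branch (chromosome 16, 21613096 to 21752189, GRCm39), and went from 123 reads in the untreated to 943 in the Adriamycin library. This was 7.49-fold higher, a log2 ratio of 2.91 (2.64 to 3.19), the highest of the measured members. Map3k20 encodes ZAK, a kinase that senses stalled ribosomes and activates JNK and p38 (chromosome 2, 72115981 to 72272954). It had 1073 and 6300 reads, 5.76-fold higher (2.53, 2.43 to 2.62). Map3k14 encodes NIK, the kinase of the non-canonical NF-kB pathway (chromosome 11, 103110588 to 103158298). It had 225 and 1207 reads, 5.25-fold higher (2.39, 2.19 to 2.61).

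Mixed lineage kinases, MAP3 kinases that act mainly on JNK, differed unequally. Map3k9, which encodes MLK1 (chromosome 12, 81767784 to 81827949), had 1248 and 5139 reads, 4.04-fold higher (2.01, 1.92 to 2.10). Map3k21, which encodes MLK4 (chromosome 8, 126637189 to 126674179), had 22 and 75 reads, 3.29-fold higher on few reads (1.72, 1.04 to 2.50). The relatives Map3k10 (MLK2) and Map3k11 (MLK3) differed little, with 1156 and 1188 reads (0.01) and 1445 and 1715 reads (0.22). Map3k12, which encodes DLK, the closest relative of LZK, had 1286 and 1506 reads (0.20), in contrast to Map3k13. Exons of Map3k10, Map3k11 and Map3k12 share 14.8%, 11.8% and 19.3% of their bases with other genes, and reads in those parts were not assigned.

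The ASK kinases, which answer to oxidative stress and feed JNK and p38, had 2 higher genes of 3. Their mean levels were 5 to 20 CPM, where 19.9% of all genes were higher. Map3k6, which encodes ASK2 (chromosome 4, 132968129 to 132980240), had 292 and 1115 reads, 3.74-fold higher (1.90, 1.72 to 2.10). Map3k5, which encodes ASK1 (chromosome 10, 19810218 to 20018499), had 454 and 982 reads, 2.12-fold higher (1.08, 0.92 to 1.25). Map3k15, which encodes ASK3, had 397 and 779 reads (0.94, 0.77 to 1.12), just short of 2-fold, and 13.9% of its exon bases lie opposite Pdha1. Map3k8 encodes TPL2, a kinase upstream of ERK in immune cells (chromosome 18, 4331327 to 4353015). It had 53 and 110 reads, 2.03-fold higher (1.02, 0.54 to 1.53). Map3k5 and Map3k8 lay at the threshold: with upper-quartile factors they were at 0.96 and 0.90, under 2-fold.

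The most abundant MAP3 kinases of untreated cells stayed under 2-fold. Map3k3, which encodes MEKK3, an activator of the ERK5 branch (chromosome 11, 105975439 to 106046272), had 3259 and 3510 reads, 20.4 and 21.5 CPM per kilobase, with a log2 ratio of 0.08. Map3k7, which encodes TAK1, the kinase between TGF-beta or cytokine receptors and NF-kB, JNK and p38 (chromosome 4, 31964097 to 32023467), had 5029 and 7855 reads, 19.7 and 30.2 CPM per kilobase (0.62, 0.56 to 0.67). Map3k4 had 4140 and 5462 reads (0.37). Its product MTK1 is activated by Gadd45 proteins. Map3k1, which encodes MEKK1, was on the lower side without reaching 2-fold, with 2968 and 2201 reads (-0.46, -0.54 to -0.38), and Map3k2 (MEKK2) had 748 and 758 reads (-0.01). The signs of Map3k2, Map3k3 and Map3k10 turned with the scaling.

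The make-up of the MAP3 tier differed between the libraries. The tier summed to 95.9 CPM per kilobase in the untreated and 154 in the Adriamycin library. Map3k3 and Map3k7 held 21.2% and 20.5% of the untreated sum and 14.0% and 19.6% of the Adriamycin sum. Map3k9 went from 5.55% to 14.0% and Map3k20 from 2.77% to 9.94%, so that Map3k9 stood beside Map3k3 (21.5 CPM per kilobase each) in the Adriamycin library. Map3k13 and Map3k14 were small parts, at 1.74% and 2.96% of the Adriamycin sum, despite their high ratios.

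**Figure D3:**
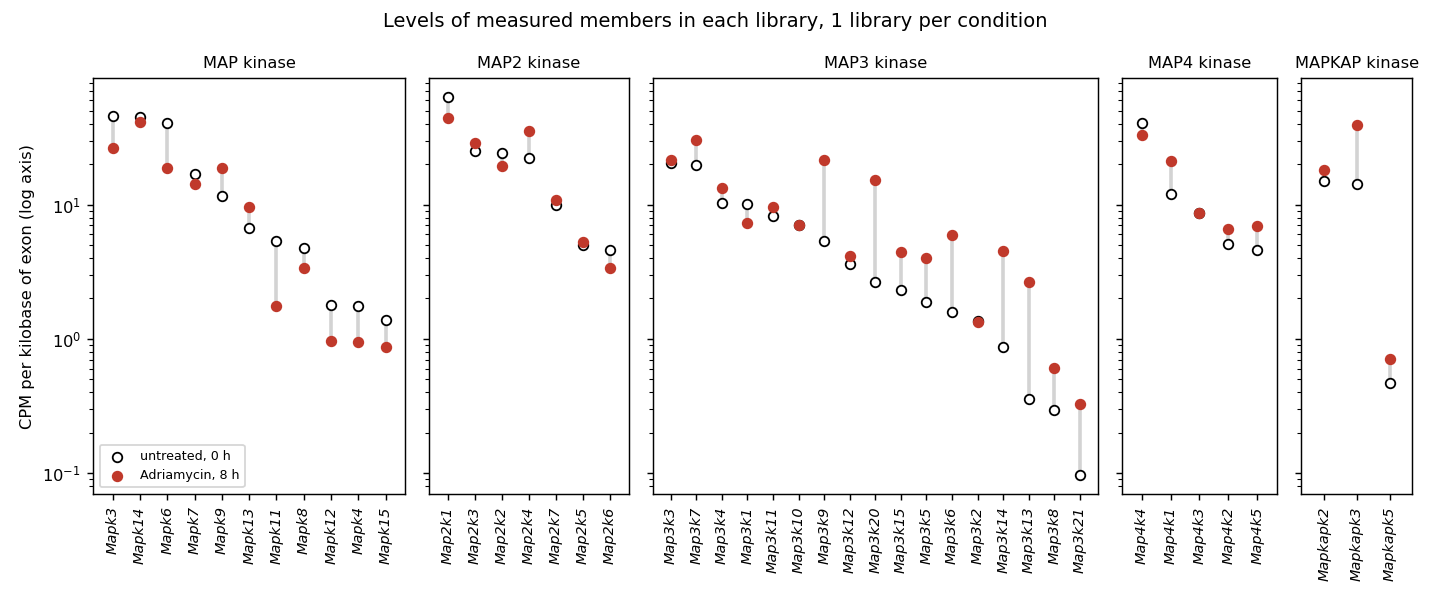
CPM per kilobase of exon on a log axis for measured members, by tier and in order of the untreated level, with open circles for the untreated and filled circles for the Adriamycin library (1 library each). Map3k9 goes from 5.32 to 21.5 and Map3k20 from 2.65 to 15.3, reaching the level of the more abundant MAP3 kinases.

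Promoter sequences are shown for 3 of the 4 members with the highest ratios, Map3k13, Map3k20 and Map3k9, and for the lower member Mapk6. These genes were picked because their windows range from 0 to 32 CpG. The sequences come from RefSeq on GRCm38.p6, a build other than that of the gene positions above. Of the starts with a sequence at hand, the most upstream was used for each gene. It need not be the first start of the gene model counted, and can lie inside that model. Nor need it be the start used in these cells. The place of each window in its gene model was not checked, so the 0 CpG of Map3k13 need not describe its promoter. Each line gives the 250 bases before the start, 5′ to 3′ on the gene's strand, with capitals for the motifs GGGCGG (the GC box) and CCAAT on either strand. The windows are chr16:21891719-21891968 (+) for Map3k13, chr2:72285387-72285636 (+) for Map3k20, chr12:81781171-81781420 (-) for Map3k9 and chr9:75410017-75410266 (-) for Mapk6.
Map3k13: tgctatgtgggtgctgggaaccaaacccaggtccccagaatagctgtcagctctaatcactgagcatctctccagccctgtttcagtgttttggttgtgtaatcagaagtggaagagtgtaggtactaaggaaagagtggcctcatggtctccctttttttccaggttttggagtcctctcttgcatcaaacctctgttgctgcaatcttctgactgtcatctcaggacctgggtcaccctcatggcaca
Map3k20: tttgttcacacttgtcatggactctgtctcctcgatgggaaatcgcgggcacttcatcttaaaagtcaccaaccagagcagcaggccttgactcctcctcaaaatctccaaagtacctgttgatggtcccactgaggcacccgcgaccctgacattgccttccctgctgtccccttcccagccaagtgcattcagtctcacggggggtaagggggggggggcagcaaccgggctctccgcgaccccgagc
Map3k9: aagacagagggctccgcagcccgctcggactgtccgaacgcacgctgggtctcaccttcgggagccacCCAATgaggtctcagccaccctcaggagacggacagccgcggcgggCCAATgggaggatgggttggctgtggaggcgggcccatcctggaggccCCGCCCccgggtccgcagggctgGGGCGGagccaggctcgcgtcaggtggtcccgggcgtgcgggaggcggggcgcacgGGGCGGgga
Mapk6: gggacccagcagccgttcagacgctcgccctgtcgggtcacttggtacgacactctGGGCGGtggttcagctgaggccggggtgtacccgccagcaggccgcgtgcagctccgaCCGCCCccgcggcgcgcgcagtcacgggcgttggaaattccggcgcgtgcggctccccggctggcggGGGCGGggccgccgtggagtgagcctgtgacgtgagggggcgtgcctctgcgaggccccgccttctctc
In these 250 bases Map3k13 had 0 CpG dinucleotides and no motif match, Map3k20 had 10 CpG and no match, Map3k9 had 25 CpG, 3 GC boxes and 2 CCAAT motifs, and Mapk6 had 32 CpG and 3 GC boxes.

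Windows of 300 bases, 250 before to 50 after the start, were at hand for 37 of the 46 members. The members without one included Map3k2, Map3k8, Map3k15, Map3k19, Map4k4, Mapk3, Mapk4 and Mapk15. The members had a median of 25 CpG in that window, against 7 over all 27025 genes with one, which include non-coding genes. In the MAP kinase tier the median was 31 (9 genes), in the MAP3 kinase tier 19 (14 genes) and among the higher members 16 (8 genes). GGGCGG was present on either strand in 25 of 37 members (67.6%), beside 35.9% of all windows, and in 4 of 8 higher members. CCAAT was present in 10 of 37 (27.0%, beside 38.02%), TATAAA in 0 of 37 (beside 14.2%) and the AP-1 motif TGANTCA in 2 of 37 (5.41%, beside 7.92%). The consensus of the p53 half-site was matched in 4 of 37 members (10.8%), beside 8.34% of all windows. No motif of these is contained in another. Matches of the p53 half-site in Map2k1, Map2k2 and Mapkapk2 were in members not called (log2 ratios -0.51, -0.32 and 0.27). Among the higher members only Mapkapk3 had such a match (1 of 8). It is shown here because p53 responds to DNA damage, and a match is no evidence of binding.
Mapkapk3: GGACTAGCCT
This match lies at chr9:107289849-107289858 (-, GRCm38.p6), starting 20 bases into the transcript, and a p53 site usually holds a pair of half-sites.

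The MAPKAP kinases are phosphorylated by p38 and in turn act on RNA-binding proteins and on the cell cycle checkpoint. Mapkapk3, which encodes MK3 (chromosome 9, 107132126 to 107167076, GRCm39), had 3154 and 8795 reads, 2.73-fold higher (log2 ratio 1.45, 1.39 to 1.51). It was the only higher member outside the MAP3 tier and the only one with a mean above 100 CPM. Mapkapk2, which encodes MK2, its close relative (chromosome 1, 130981437 to 131025563), had 1822 and 2233 reads (0.27, 0.18 to 0.36). In CPM per kilobase Mapkapk2 and Mapkapk3 were at 15.1 and 14.3 untreated and at 18.1 and 39.1 with Adriamycin. The order of the pair thus turned by this measure, though the untreated levels were close. In unscaled reads Mapkapk3 led in both libraries. Mapkapk5, which encodes MK5, a partner of ERK3, had 60 and 91 reads (0.57, 0.09 to 1.07). With counts halved, as for mates counted separately, its interval was -0.12 to 1.29 and held 0. Gm42878 covers 56.4% of its exon bases on the same strand, and reads there were assigned to neither gene, so its level is uncertain.

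The MAP4 kinases, relatives of yeast STE20 at the head of some cascades, differed by less than 2-fold. Map4k4, which encodes HGK (chromosome 1, 39940073 to 40065470), was the most abundant at 40.4 and 33.0 CPM per kilobase, with 15378 and 12833 reads (-0.29, -0.32 to -0.25). Map4k1, which encodes HPK1, a kinase best known from blood cells (chromosome 7, 28681475 to 28702704), had 12.1 and 20.9 CPM per kilobase, with 1480 and 2613 reads (0.79, 0.70 to 0.89). The blood marker list, with 1 of 2 measured genes higher, summed to 38.1 and 43.4 CPM, and its part in the value of Map4k1 was not tested. Map4k5 had 1577 and 2420 reads (0.59), Map4k2 1346 and 1767 (0.36) and Map4k3 3398 and 3498 (0.01). The share of Map4k4 in the tier was 57.0% in the untreated and 43.4% in the Adriamycin library. The summed level of the tier changed sign with the scaling.

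Length of the gene was also compared, as a measure outside the selection. The higher members spanned a median of 47.7 kb from first to last exon and the other measured members 44.1 kb. Over the 44 measured members, Spearman's rho between span and log2 ratio was 0.19, and over all 14871 measured genes it was 0.03. These points share both libraries and are not independent.

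Genes that work with the cascade but carry other names were read from 7 lists, with 106 of 107 genes found and 101 measured. Of these 13 were higher and 11 lower, 24 in all, beside 24.0% of all measured genes higher or lower. By direction the lists held 12.9% higher and 10.9% lower genes, beside 17.0% and 6.95% of all measured genes, and each count below is to be read against those shares. The list of Ras, its exchange factors and Raf kinases held 0 higher and 1 lower among 17 (median log2 ratio -0.58). The lower gene was Mras, a Ras relative that helps activate Raf, with 2843 and 661 reads (-2.13, -2.26 to -2.01). Araf and Braf, which are MAP3 kinases by activity, were picked out after their values were seen. Araf had 3320 and 5307 reads (0.65) and Braf 3775 and 2364 (-0.70). Other cascade kinases had 1 higher and 1 lower of 10, both of the TAO family, which activates p38 after DNA damage. Taok3 had 591 and 1592 reads (1.40) and Taok1 6477 and 3202 (-1.04).

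Scaffolds, which hold the kinases of a cascade together, held 4 higher and 0 lower among 25 (16.0% higher, near the 17.0% of all genes; median -0.10), and the median was above 0 with total counts. The higher ones included both KSR genes, scaffolds of Raf, MEK and ERK: Ksr1 had 978 and 2130 reads (1.09) and Ksr2 78 and 367 (2.20). Cnksr1, a further Raf scaffold, had 109 and 714 reads (2.68, 2.39 to 2.99). Mapkbp1, a scaffold of the JNK pathway, had 1189 and 3379 (1.48). Downstream kinases had 0 higher and 1 lower of 7 measured, and the lower one was Rps6ka6, which encodes RSK4 (4424 and 2057 reads, -1.13). Phosphatases of MAP kinases held 3 higher and 1 lower among 11 (median 0.23). Dusp2 had 44 and 685 reads (3.92), Ptpn7 121 and 865 (2.80) and Dusp8 46 and 125 (1.40). Dusp16, a phosphatase of JNK, had 5364 and 2456 (-1.15).

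Transcription factors phosphorylated by MAP kinases held 3 higher and 0 lower among 17 (17.6% higher, near the 17.0% of all genes; median -0.27). The 3 are subunits of AP-1, namely Fos (206 and 1267 reads, 2.59), Jun (269 and 995, 1.86) and Fosl1 (6 and 343, 5.70). Fosl1 was measured only through its level in the Adriamycin library, and Ccdc85b lies opposite 57.2% of its exon bases. Other AP-1 genes of the list were not called, namely Junb (0.74), Fosl2 (0.49) and Jund (-0.27, with 52.6% of its exon bases opposite Gm11175). Genes that respond to ERK or feed back on it held 3 higher and 7 lower among 19 (15.8% higher and 36.8% lower; median -0.68), and this list shares genes with those of phosphatases and transcription factors. The largest differences were those of Fos, Phlda1 (167 and 706 reads, 2.05), Ier3 (1374 and 346, -2.02) and Etv1 (865 and 221, -1.99). The other higher gene was Egr1, and the other lower genes were Ccnd1, Etv5, Spred1, Spry2 and Spry4, named after their values were seen. Spry4 encodes an inhibitor of the ERK branch and had 11546 and 4851 reads (-1.28), and Egr1, a transcription factor, had 1122 and 3154 (1.46).

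**Figure D4:**
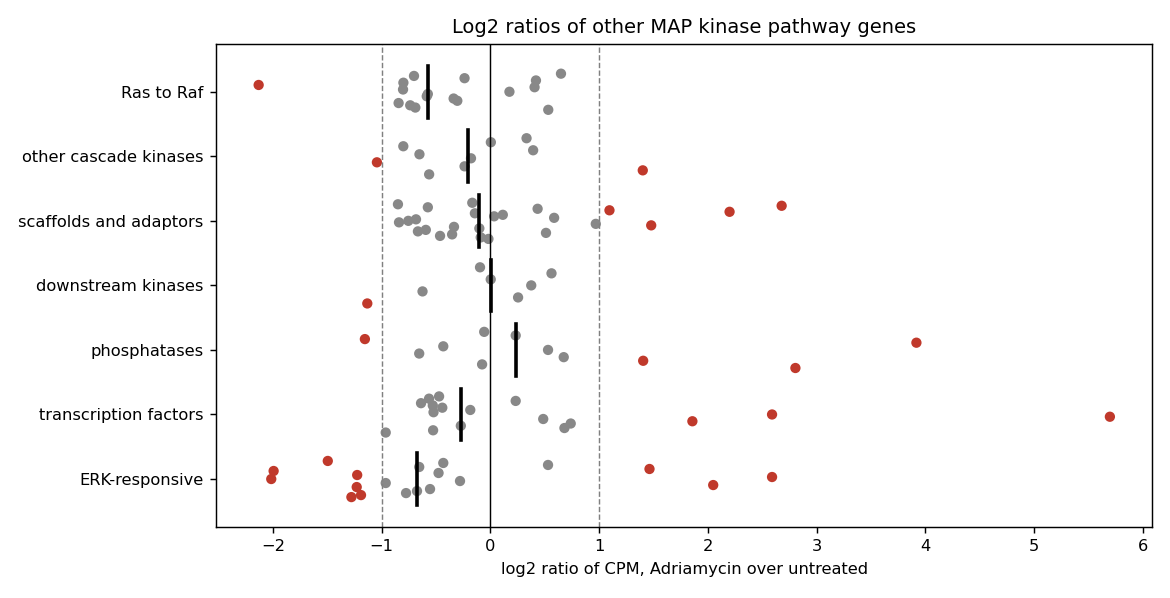
Log2 ratio of CPM, Adriamycin over untreated library, for the measured genes of 7 lists of MAP kinase pathway genes outside the symbol rule. Points are genes (red at 2-fold or more), black bars are list medians and dashed lines mark 2-fold, with 1 library per condition and some genes on more than 1 list. The ERK-responsive list has 7 lower and 3 higher genes and a median of -0.68.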

How the data were processed

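RNA from 2 libraries of mouse embryonic stem cells was analysed, 1 per condition. The values are raw counts of reads in each gene, as deposited by the authors. Paired reads with both ends aligned were counted with featureCounts 2.0.3, per the file headers, over exons of GRCm39 release 105, with no strand option and no option for reads that overlap several genes. Builds mm9 and mm10 and the tools HISAT2 2.0.4, DESeq2 1.16.1, featureCounts 1.6.0, FastQC and Trim Galore 0.3.4 are listed in the submitters' processing notes, so counter version and build differ from the headers. Mates may have been counted separately: a count of 2 was more frequent than 1 in both tables.

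Symbols came from GENCODE M21 by Ensembl identifier (52081 of 55414 matched). For a symbol on 2 identifiers, the longer exon model was kept (Ddit3). TMM factors (edgeR 4.0.16, R 4.3.3) were 0.951 for untreated and 1.05 for Adriamycin. The log2 ratios carry a pseudocount of 0.5 read. Intervals are conditional binomial (Clopper-Pearson, 95%), computed with Python 3.11.15 and scipy 1.17.1. They were run on simulated counts of independent reads, which the intervals assume, so that run checks the computation only. The intervals are too narrow where reads are not independent molecules. A count of 0 allows up to 3 reads, 0.0754 CPM untreated and 0.0740 CPM with Adriamycin. Named in full are members at 2-fold or more and the 2 most abundant of each tier in the untreated library; the rest are given briefly, and of each pathway list up to 4 genes past 2-fold. Some genes that these rules would name are not reported here, and remain in the counts, medians and sums. Protein stretches planned for the MAP kinases were not used here. Members and lists were chosen with earlier results of these data known. Alternatives were other scalings (total counts, upper quartile, DESeq2 1.42.0 size factors), filters, pseudocounts and folds.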

Additional observations from a re-analysis of the deposited data

How the results depend on the processing

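With no replicate, no library could be left out. No paired analysis was possible because each condition has 1 library. The higher members numbered 9 as reported and 7 to 11 under every other scaling, filter and pseudocount tried. With no filter on level they were 11 of 46, where 29.2% of all genes were higher, and with a mean of at least 5 CPM 7 of 40, where 12.5% were, so the members lay below the share of all genes in one case and above it in the other. They were 15 at 1.5-fold (25.7% of all measured genes were higher by that rule) and 6 at 3-fold (9.86%). The lower members numbered 2 as reported, 1 with total counts (4.85% of all measured genes were lower) and 3 with upper-quartile factors (9.39%). They were 7 at 1.5-fold (18.9%) and 1 at 3-fold (1.73%). Other pathway genes past the threshold numbered 24, with 51 at 1.5-fold (44.5%) and 11 at 3-fold (11.6%). The median log2 ratio of the members, 0.20, became 0.34 under total counts and 0.076 under upper-quartile factors, and those scalings placed the median of all measured genes at 0.12 and -0.15. Higher genes were 71.0% of all genes called, 80.2% under total counts and 61.6% under upper-quartile factors. Of the 44 measured members, 37 kept their sign under all 4 scalings, and Map2k5, Map2k7, Map3k2, Map3k3, Map3k10, Map4k3 and Mapk14 did not. The MAP3 kinases called higher, 8 as reported, were 9 under total counts and 6 under upper-quartile factors. Of all measured genes 19.6% and 15.1% were higher under those scalings. Map3k8 fell short of 2-fold with a pseudocount of 5 reads (0.96). Halving all counts, as for mates counted separately, left 0 outside the intervals of all 11 called members, which is no check of the calls. Depth limits Map3k8, Map3k19, Map3k21, Mapk10 and Mapkapk5, with at most 110 reads in either library. Most shares within a tier depended on the scaling by exon length. In unscaled reads of the untreated library Map4k4 held 66.3% of its tier, against 57.0% per kilobase, while Map3k7 held 21.0%, against 20.5%.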
